A study of Mus musculus with 9 samples.

Results

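Genes of neutrophil recruitment and of the S100 alarmins were followed through mouse skin lesions treated with microneedles. The 8 genes were chosen by name, with earlier results of these data known. They were the chemokines Cxcl1, Cxcl2 and Cxcl5, the receptors Cxcr2 and Csf3r, the alarmins S100a8 and S100a9, and the surface marker Ly6g. All 8 were among the 54456 genes of the deposited count table, and all 8 passed the filter on low counts that left 26081 genes for testing. The tissue was mouse skin with lesions labelled AA-like, AA being left as the labels write it. One group of lesions received microneedles carrying IL-2 and CCL22 (loaded-needle skin), another received empty needles (empty-needle skin) and the last had no treatment (untreated skin), with 3 libraries in each. Microneedles are arrays of short needles that deliver a cargo through the outer skin layer. IL-2 sustains T cells, and CCL22 is a chemokine for cells that carry CCR4. The sources used here state neither strain, age nor sex, nor how lesions arose. Nor do they tell whether each library had its own animal, so a p-value here reflects library-to-library spread, part of which may be technical.

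Neutrophils are the first white blood cells to enter injured or infected skin. Keratinocytes, macrophages and endothelial cells release CXC chemokines such as CXCL1, CXCL2 and CXCL5, which bind CXCR2 on neutrophils and draw them out of the blood, while G-CSF acts through CSF3R to promote their production and survival. S100A8 and S100A9 pair to form calprotectin, a calcium- and zinc-binding alarmin that fills the cytoplasm of neutrophils and is also made by keratinocytes of injured or inflamed epidermis.

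Total counts ran from 85962714 to 96740589 per library. Differences were tested with edgeR's quasi-likelihood test over all 26081 genes, and a gene was called at a Benjamini-Hochberg adjusted p under 0.05. Many genes differed between the groups. In loaded-needle skin against untreated skin, 42.3% of all tested genes were called, in empty-needle skin against untreated skin 48.3%, and in loaded-needle against empty-needle skin 41.4%. The share of these calls that were higher was 44.9%, 41.7% and 55.3% in that order of comparisons. Scaling by library size alone gave 68.1%, 57.9% and 61.3% higher, and upper-quartile scaling 48.9%, 53.0% and 44.4%. Library size alone moved the median of all genes by 0.13 and 0.10 on the log2 scale in the comparisons of loaded-needle and empty-needle skin with untreated skin. Mitochondrially encoded transcripts held 3.78% to 3.90% of counts in loaded-needle skin, 3.31% to 3.42% in empty-needle skin and 4.56% to 4.72% in untreated skin. Ccl22 stood at 11.8 ± 1.67 CPM in loaded-needle skin, 4.30 ± 0.208 CPM in empty-needle skin and 7.77 ± 0.454 CPM in untreated skin (mean ± SD, n = 3 libraries each), where CPM give the counts of a gene relative to the TMM-scaled total of its library. The other cargo gene, Il2, stood at 0.218 ± 0.0564, 0.192 ± 0.0682 and 0.225 ± 0.0850 CPM in the same groups and was not called in any comparison.

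In loaded-needle skin the alarmins and the receptors were lower than in untreated skin, and 1 of the chemokines was higher. S100a8 and S100a9 were 2.74-fold and 2.87-fold lower, Csf3r 2.14-fold and Cxcr2 1.62-fold lower, and Cxcl1 was 2.38-fold higher. Of the 8 genes, 4 fell, 1 rose and 3 were not called, where 23.3% of all tested genes fell and 19.0% rose. The median log2 fold change of the 8 genes was -0.76, against -0.014 over all tested genes. In 6 of the 8 genes the CPM of the groups did not overlap, as in 52.7% of all tested genes. In empty-needle skin against untreated skin, 28.1% of all tested genes fell and 20.2% rose. Of the 8 genes Csf3r (log2 fold change -0.68) and S100a8 (-0.29) were lower there, the S100a8 call being lost under all 3 other scalings, and 0 rose. The test also called Cxcl5 lower, but 0 empty-needle libraries of Cxcl5 reached the cutoff of the filter, so nothing is drawn from that call. The median of the 8 was -0.27, against -0.016 over all tested genes, and it includes Cxcl5. The groups did not overlap there in 4 of the 8 genes, Cxcl5 included, as in 54.6% of all tested genes. Between the needle groups, 4 of the 8 genes were lower and 1 higher in loaded-needle skin, where 18.5% of all tested genes were lower and 22.9% higher. Their median, Cxcl5 included, was -0.38, against 0.015 over all tested genes. In 4 of the 8 genes the groups did not overlap, as in 50.8% of all tested genes. The comparisons share libraries with each other, so their values for a gene are given side by side. Counts of calls in the other gene lists below stand beside these same shares of all tested genes. A list near those shares shows nothing particular to it. As the 8 genes and all lists were chosen with earlier results known, these contrasts are a description and not a test.

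**Figure D1:**
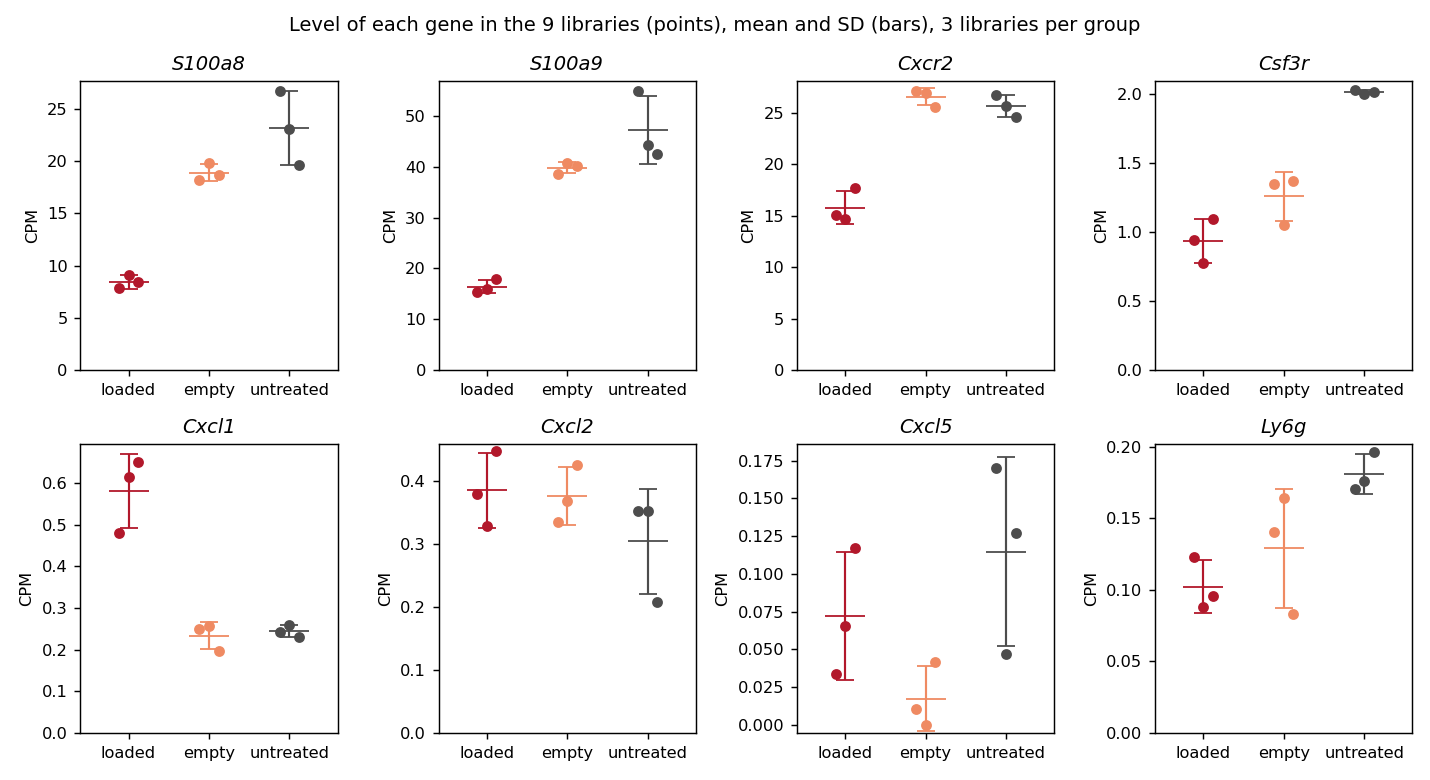
CPM (y axes, linear) of each of the 8 genes in the loaded-needle, empty-needle and untreated libraries. Points are single libraries, and bars are the mean and SD of 3 libraries. S100a8, S100a9 and Cxcr2 lie lower in all 3 loaded-needle libraries than in any other library, and Cxcl1 lies higher.

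Cxcl1 encodes the mouse chemokine also known as KC, a CXCR2 ligand made by keratinocytes, fibroblasts and endothelium. It lies on chromosome 5 from 91039100 to 91040974 (mm39, plus strand). Its counts were 43, 56 and 61 in the loaded-needle libraries, against 23, 25 and 19 in the empty-needle libraries and 20, 22 and 20 in the untreated libraries. All 3 loaded-needle libraries lay above the other 6, which overlapped each other. The level was 0.581 ± 0.0891 CPM in loaded-needle skin, 0.234 ± 0.0320 CPM in empty-needle skin and 0.244 ± 0.0138 CPM in untreated skin (SD, n = 3 each). The log2 fold change was 1.25 (SE 0.25, edgeR adjusted p = 0.000124) for loaded-needle skin against untreated skin and 1.31 (SE 0.24, edgeR adjusted p = 5.11e-05) against empty-needle skin. For empty-needle skin against untreated skin it was -0.063 (95% interval -0.63 to 0.51), which was not called and changed sign under 2 of the 3 other scalings. Immediate-early and heat shock genes, which answer to handling of tissue, also moved with the groups. Of 8 such genes, 5 were higher and 2 lower in loaded-needle skin than in untreated skin, and between the needle groups 2 were higher and 4 lower in loaded-needle skin. Fos stood at 24.3 ± 1.53 CPM in loaded-needle skin, 23.6 ± 1.11 CPM in empty-needle skin and 11.9 ± 0.199 CPM in untreated skin. The summed level of the 8 genes ran from 754 to 766 CPM, from 781 to 809 CPM and from 708 to 729 CPM in the same groups, and their part in the difference of Cxcl1 was not tested.

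Cxcl2 encodes MIP-2, another CXCR2 ligand, which macrophages and keratinocytes make on activation. The gene lies 10755 bases from Cxcl1, from 91051730 to 91053797 on chromosome 5. Its counts were 34, 30 and 42 in loaded-needle skin, 31, 36 and 41 in empty-needle skin and 29, 30 and 18 in untreated skin. The 3 groups overlapped. The log2 fold change was 0.34 (95% interval -0.19 to 0.88) for loaded-needle skin and 0.31 (-0.23 to 0.85) for empty-needle skin against untreated skin, and 0.035 (-0.48 to 0.55) between the needle groups. None of these was called (edgeR adjusted p = 0.324, 0.356 and 0.931). The first of these intervals includes a rise of up to 0.88. Of the 50-base stretches of Cxcl2 transcripts, 5.84% also occur in transcripts of Cxcl3, so a small part of its reads could be shared, whereas 0% of those of Cxcl1 occur in another gene. The shares were 6.68% for Cxcr2 and 10.8% for Csf3r, each spread over many genes.

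The promoters of Cxcl1 and Cxcl2 are shown because both genes are known targets of the transcription factor NF-kB and only Cxcl1 passed the test in loaded-needle skin. A difference between the 2 genes was looked for in the ratio of their counts within a library. Cxcl1 per Cxcl2 was 1.26, 1.87 and 1.45 in loaded-needle skin, 0.742, 0.694 and 0.463 in empty-needle skin and 0.690, 0.733 and 1.11 in untreated skin. The loaded-needle ratios lay above all the others. In an exact permutation test of the log2 ratio, 3 libraries against 3 can give no p below 0.1, and the two-sided p was 0.1 against untreated skin and 0.1 against empty-needle skin. With 9 such ratio tests in all, the Benjamini-Hochberg adjusted exact p was 0.225 in both cases, so the difference did not pass. The windows come from RefSeq on build GRCm38.p6 and cover 200 bases that run from 210 to 11 bases before the annotated start, chr5:90891035-90891234 for Cxcl1 and chr5:90903689-90903888 for Cxcl2, both on the plus strand. Capitals mark the longest stretch that the 250 bases before the start of both genes share on the plus strand, which is 14 bases long and holds a binding motif of NF-kB.
Cxcl1: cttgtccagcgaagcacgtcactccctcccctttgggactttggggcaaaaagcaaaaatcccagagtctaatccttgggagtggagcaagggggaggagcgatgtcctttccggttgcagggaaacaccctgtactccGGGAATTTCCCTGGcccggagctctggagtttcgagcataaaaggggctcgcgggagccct
Cxcl2: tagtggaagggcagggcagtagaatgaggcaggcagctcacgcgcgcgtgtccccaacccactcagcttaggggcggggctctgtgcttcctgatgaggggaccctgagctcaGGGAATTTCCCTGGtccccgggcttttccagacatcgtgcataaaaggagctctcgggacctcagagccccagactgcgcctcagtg
The shared stretch, GGGAATTTCCCTGG, started 71 bases before the start of Cxcl1 and 97 bases before that of Cxcl2. Searched on both strands, it occurred in 2 of 32851 upstream windows of the same length, or 0.00609%, and these were the windows it was taken from. Of the 8 genes, 7 had a promoter window, and the windows of S100a8, S100a9, Cxcr2, Csf3r and Ly6g did not hold these letters. A match is a description of the sequence and not a binding site.

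Cxcl5, which encodes LIX, a CXCR2 ligand of epithelial cells, was close to the detection limit. It had 3, 6 and 11 counts in the loaded-needle libraries, 1, 0 and 4 counts in the empty-needle libraries and 14, 4 and 11 counts in the untreated libraries. In CPM all empty-needle libraries lay below all untreated libraries, and the loaded-needle libraries overlapped both groups. In counts, empty-needle library 3 and untreated library 2 were equal at 4, and scaling set them at 0.0415 and 0.0470 CPM. It passed the filter because 2 untreated libraries and 1 loaded-needle library reached the cutoff, while 0 empty-needle libraries did. Summed over libraries, 5 counts in empty-needle skin stood against 29 in untreated skin. The gene was tested because of the groups where it was high. No ratio, fitted fold change or p of this comparison is therefore given as a result. In a fit of these 2 groups alone it did not pass the filter. For loaded-needle skin against untreated skin the log2 fold change was -0.64 (95% interval -1.83 to 0.54, edgeR adjusted p = 0.412). Loaded-needle against empty-needle skin has the same limit, as 1 loaded-needle library and 0 empty-needle libraries reached the cutoff. In a fit of those 2 groups alone the gene did not pass the filter either. Its fitted values there are not given as a result. The main fit did not call it, and 8 of 16 alternatives did. The gene lies on chromosome 5 from 90907219 to 90909483. A count of 0 in 1 library allows a level of up to 0.0307 to 0.0365 CPM, depending on the library.

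Most other ligands were near the detection limit. Cxcl3, Ppbp and Cxcl15, further CXC chemokines of neutrophils, did not pass the filter on low counts. The 3 tested members of this list were Ccl3, Ccl4 and Cxcl12. Of these, 0 were called in loaded-needle skin against untreated skin, with a median log2 fold change of 0.062. Cxcl12, which holds neutrophils in the bone marrow through CXCR4, stood at 99.98 ± 1.34 CPM in loaded-needle skin, 84.2 ± 3.47 CPM in empty-needle skin and 95.8 ± 0.376 CPM in untreated skin. It was lower in empty-needle skin than in untreated skin (log2 fold change -0.19) and higher in loaded-needle than in empty-needle skin (0.25).

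Cxcr2, the receptor of these ligands, lies on chromosome 1 from 74193148 to 74200405. Its counts were 1347, 1339 and 1658 in loaded-needle skin, 2516, 2635 and 2469 in empty-needle skin and 2203, 2186 and 2128 in untreated skin. All 3 loaded-needle libraries lay below the other 6. On the CPM scale, which corrects for depth, the empty-needle and untreated libraries overlapped. The level was 15.8 ± 1.62 CPM in loaded-needle skin, 26.6 ± 0.856 CPM in empty-needle skin and 25.7 ± 1.10 CPM in untreated skin (SD, n = 3 each). The log2 fold change of loaded-needle skin was -0.70 (SE 0.056, edgeR adjusted p = 8.55e-10) against untreated skin and -0.75 (SE 0.056, edgeR adjusted p = 1.46e-10) against empty-needle skin. For empty-needle skin against untreated skin it was 0.050 (95% interval -0.062 to 0.16, edgeR adjusted p = 0.481), and it was called, higher, under library-size scaling (0.15, edgeR adjusted p = 0.0126).

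Csf3r encodes the G-CSF receptor, which neutrophils and monocytes carry. It lies on chromosome 4 from 125918343 to 125938233. Its counts were 84, 71 and 103 in loaded-needle skin, 125, 103 and 132 in empty-needle skin and 167, 170 and 174 in untreated skin. The untreated libraries lay above all 6 treated ones, and in CPM the groups of both needles overlapped. The level was 0.938 ± 0.159 CPM in loaded-needle skin, 1.26 ± 0.177 CPM in empty-needle skin and 2.01 ± 0.0161 CPM in untreated skin. Against untreated skin the log2 fold change was -1.10 (SE 0.14, edgeR adjusted p = 3.56e-07) in loaded-needle skin and -0.68 (SE 0.14, edgeR adjusted p = 0.000133) in empty-needle skin. Between the needle groups it was -0.42 (SE 0.15, edgeR adjusted p = 0.0250). That call was lost without loaded-needle library 1 or 2 or empty-needle library 1 or 3, at log2 fold changes of -0.42, -0.30, -0.36 and -0.38. In bulk skin, fewer cells of a type and less RNA per cell cannot be told apart.

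The 2 receptor genes were also compared within each library. Cxcr2 per Csf3r was 16.04, 18.9 and 16.1 counts in loaded-needle skin, 20.1, 25.6 and 18.7 in empty-needle skin and 13.2, 12.9 and 12.2 in untreated skin. Both treated groups lay above untreated skin. The exact two-sided permutation p was 0.1 for each needle group against untreated skin, the smallest that 3 against 3 can give, and the adjusted exact p over the 9 ratio tests was 0.225. Per kilobase of exon, Cxcr2 stood at 5.18 ± 0.532, 8.72 ± 0.281 and 8.42 ± 0.361 CPM in loaded-needle skin, in empty-needle skin and in untreated skin. Csf3r stood at 0.260 ± 0.0441, 0.348 ± 0.0489 and 0.558 ± 0.00447 CPM per kilobase of exon in the same groups. Per length, then, the level of Cxcr2 was above that of Csf3r in every group. Exon lengths were those of GENCODE M21, while reads were counted over whole gene spans.

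**Figure D2:**
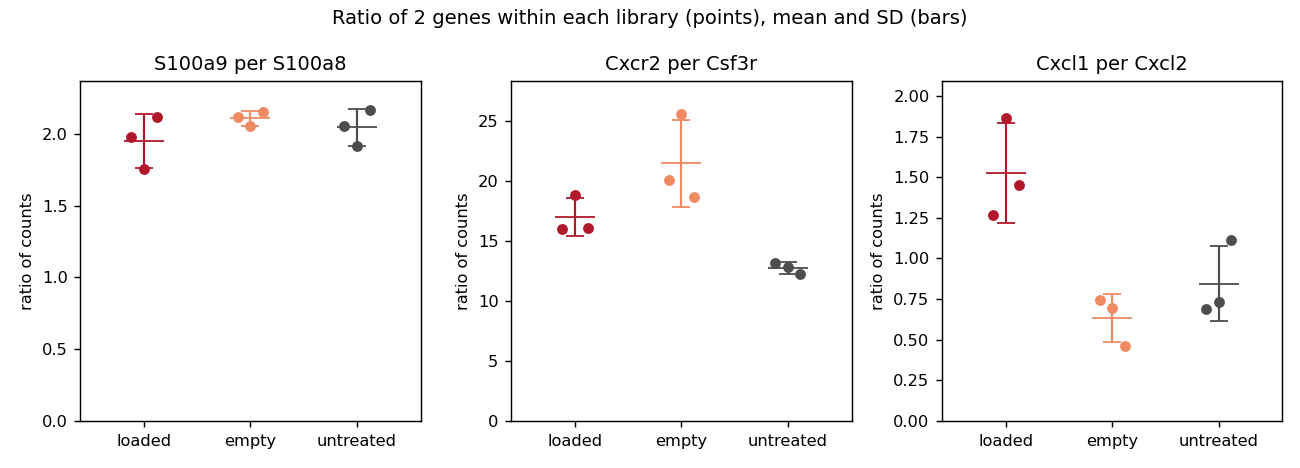
Ratio of the counts of 2 genes within each library (y axes, linear), for S100a9 per S100a8, Cxcr2 per Csf3r and Cxcl1 per Cxcl2. Points are the 3 libraries of each group and bars the mean and SD. S100a9 per S100a8 overlaps across the groups, Cxcr2 per Csf3r is lowest in untreated skin, and Cxcl1 per Cxcl2 is highest in loaded-needle skin.

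Among other receptors for neutrophil attractants, 3 of 6 tested genes fell and 0 rose in loaded-needle skin against untreated skin (median log2 fold change -0.38). In empty-needle skin 4 fell and 1 rose (median -0.32), and between the needle groups 2 were lower and 1 higher in loaded-needle skin (median -0.13). Ptafr, the receptor of platelet-activating factor, stood at 4.28 ± 0.133 CPM in loaded-needle skin, 5.20 ± 0.419 CPM in empty-needle skin and 5.98 ± 0.415 CPM in untreated skin, and was called in all 3 comparisons. Ltb4r1, the leukotriene B4 receptor, was higher in empty-needle skin, at 13.6 ± 0.112, 19.3 ± 0.735 and 14.2 ± 1.19 CPM in the same groups. Cxcr1 and Fpr2 did not pass the filter, and nearly all of the Fpr2 span overlaps another gene in the table. Growth factors and their receptors gave 1 higher and 0 lower of 5 tested genes in loaded-needle skin against untreated skin (median -0.10). In empty-needle skin 3 were higher and 0 lower (median 0.17), and between the needle groups 2 were lower and 0 higher in loaded-needle skin (median -0.23). Csf3, the gene of G-CSF itself, stood at 0.163 ± 0.0538 CPM in loaded-needle skin, 0.147 ± 0.0475 CPM in empty-needle skin and 0.166 ± 0.0701 CPM in untreated skin, and was not called.

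S100a8 and S100a9 lie 22596 bases apart on chromosome 3 in the epidermal differentiation complex, S100a8 from 90576285 to 90577342 on the plus strand and S100a9 from 90599939 to 90603028 on the minus strand. No other gene of the table overlaps either, and 0% of the 50-base stretches of their transcripts occur in another gene. S100a8 had 700, 830 and 790 counts in loaded-needle skin, 1687, 1940 and 1798 in empty-needle skin and 2198, 1967 and 1698 in untreated skin. The loaded-needle libraries lay below all the others, while the other groups overlapped. The level was 8.45 ± 0.638 CPM in loaded-needle skin, 18.9 ± 0.846 CPM in empty-needle skin and 23.1 ± 3.55 CPM in untreated skin. The log2 fold change of loaded-needle skin was -1.45 (SE 0.11, edgeR adjusted p = 3.04e-06) against untreated skin and -1.16 (SE 0.11, edgeR adjusted p = 1.46e-05) against empty-needle skin.

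S100a9 had 1383, 1454 and 1675 counts in loaded-needle skin, 3572, 3980 and 3873 in empty-needle skin and 4512, 3763 and 3679 in untreated skin. Again the loaded-needle libraries lay below all 6 others, and untreated library 1 lay above the other 2 of its group. In CPM the empty-needle libraries, at 38.6, 40.7 and 40.2, lay just below the untreated ones, at 54.8, 44.2 and 42.5. The level was 16.4 ± 1.26 CPM in loaded-needle skin, 39.8 ± 1.11 CPM in empty-needle skin and 47.2 ± 6.69 CPM in untreated skin. The log2 fold change of loaded-needle skin was -1.52 (SE 0.11, edgeR adjusted p = 1.59e-05) against untreated skin and -1.28 (SE 0.11, edgeR adjusted p = 4.10e-05) against empty-needle skin.

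Empty needles left the alarmin genes closer to untreated skin. Against untreated skin the log2 fold change was -0.29 for S100a8 (95% interval -0.52 to -0.062, edgeR adjusted p = 0.0396) and -0.24 for S100a9 (-0.48 to -0.0056, edgeR adjusted p = 0.0877). Both results depended on the processing or on single libraries. The S100a8 call was lost under all 3 other scalings (edgeR adjusted p = 0.0630, 0.0683 and 0.0844) and without loaded-needle library 3, any of the empty-needle libraries or untreated library 2 (log2 fold changes of -0.33 to -0.24). S100a9 was called without untreated library 1 (-0.13, edgeR adjusted p = 0.0223) or 3 (-0.32, edgeR adjusted p = 0.0153).

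The balance between the 2 alarmin genes was read from their ratio. S100a9 per S100a8 was 1.98, 1.75 and 2.12 in loaded-needle skin, 2.12, 2.05 and 2.15 in empty-needle skin and 2.05, 1.91 and 2.17 in untreated skin. The 3 groups overlapped, and the exact two-sided permutation p was 0.6, 0.7 and 0.3 for loaded-needle skin against untreated skin, empty-needle skin against untreated skin and loaded-needle against empty-needle skin. A design of 3 against 3 cannot show that the ratio did not change. Of all 8 genes S100a9 and S100a8 had the highest level per kilobase of exon in every group, at 31.4 ± 2.41 and 12.2 ± 0.919 CPM in loaded-needle skin, 76.3 ± 2.13 and 27.2 ± 1.22 CPM in empty-needle skin and 90.4 ± 12.8 and 33.4 ± 5.12 CPM in untreated skin. Per kilobase of whole gene span, S100a8 stood above S100a9 in every group, such as 7.98 against 5.31 CPM in loaded-needle skin.

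The rest of the S100 family was counted as well. In loaded-needle skin 7 of 11 tested S100 genes fell and 2 rose against untreated skin (median log2 fold change -0.35), and in empty-needle skin all 11 fell (median -0.50). Between the needle groups 8 were higher and 2 lower in loaded-needle skin (median 0.16). S100a3, a gene of the hair cuticle, stood at 374 ± 9.91 CPM in loaded-needle skin, 226 ± 11.1 CPM in empty-needle skin and 308 ± 14.3 CPM in untreated skin. Of the S100a3 span, 42.5% overlaps other genes in the table. S100a7a, a psoriasin-type gene of keratinocytes, stood at 77.6 ± 0.983, 49.9 ± 3.28 and 69.0 ± 1.88 CPM in the same groups. S100a14, a keratinocyte gene, stood at 571 ± 9.16, 532 ± 22.4 and 766 ± 44.3 CPM. Reported receptors of the alarmins fell in 5 of 7 tested cases and rose in 1 in loaded-needle skin against untreated skin (median -0.35). They fell in 4 cases and rose in 0 in empty-needle skin (median -0.26), and 2 were higher and 1 lower in loaded-needle than in empty-needle skin (median -0.028). Among them Cd36, Bsg and the lipopolysaccharide receptor genes Cd14 and Tlr4 had the smallest p over the 3 groups. The adaptor gene Myd88 was listed at 0 in every library, and its whole span overlaps other genes in the table.

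Ly6g, the surface protein by which mouse neutrophils are identified, lies on chromosome 15 from 75027089 to 75030975. It had 11, 8 and 9 counts in loaded-needle skin, 13, 16 and 8 in empty-needle skin and 14, 15 and 17 in untreated skin. The loaded-needle libraries lay below the untreated ones in CPM, and the empty-needle libraries lay below untreated ones as well and overlapped the loaded ones. The log2 fold change of loaded-needle skin against untreated skin was -0.82 (95% interval -1.63 to -0.0054, edgeR adjusted p = 0.102), and for empty-needle skin it was -0.48 (-1.26 to 0.29, edgeR adjusted p = 0.313). Between the needle groups it was -0.33 (-1.18 to 0.51, edgeR adjusted p = 0.561). Ly6g was thus not called in any comparison. From the summed counts, 28 in loaded-needle against 46 in untreated skin, the ratio after scaling was 0.563 (exact binomial 95% interval 0.339 to 0.920, counting error only). It was 0.712 (0.449 to 1.12) for empty-needle against untreated skin and 0.790 (0.466 to 1.33) for loaded-needle against empty-needle skin. These intervals leave out the spread between libraries, so no difference is drawn from them. Ly6g reached the cutoff of the filter in 3 untreated libraries, 2 empty-needle libraries and 1 loaded-needle library. Of the 50-base stretches of its transcripts, 0.448% occur in another gene, Ly6i among them. Relatives of Ly6g in the same gene family gave 5 lower and 0 higher of 9 tested genes in loaded-needle skin and 3 lower and 2 higher in empty-needle skin against untreated skin (medians -0.68 and -0.29). Against empty-needle skin 5 were lower and 1 higher in loaded-needle skin (median -0.39). Ly6a stood at 16.4 ± 0.672 CPM in loaded-needle skin, 21.4 ± 0.839 CPM in empty-needle skin and 40.5 ± 2.78 CPM in untreated skin.

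**Figure D3:**
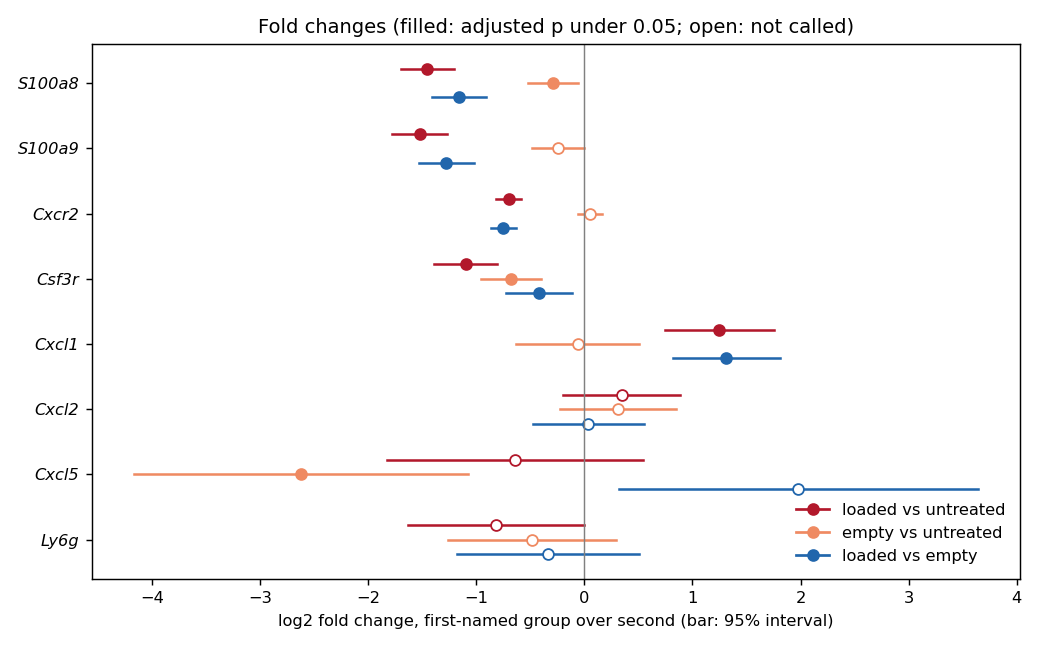
Log2 fold changes (x axis) of the 8 genes (y axis) in the 3 comparisons, with 95% intervals from the edgeR fit. Filled points were called at an adjusted p under 0.05 and open points were not. S100a8, S100a9 and Cxcr2 lie below 0 in both comparisons of loaded-needle skin, Cxcl1 lies above 0 in both, and the intervals of Cxcl5 and Ly6g are wide. The filled point of Cxcl5 comes from a gene that 0 empty-needle libraries brought past the filter.

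The name of the set was checked against neutrophil markers. Defining genes of the neutrophil granules were scarce. Elane, Camp and Ngp, which encode granule proteins of neutrophils, did not pass the filter. Elane averaged 0.0217, 0.0241 and 0.0234 CPM in loaded-needle, empty-needle and untreated skin, all under the limit that a count of 0 allows. Mpo, the myeloperoxidase gene, stood at 0.283 ± 0.0544 CPM in loaded-needle skin, 0.449 ± 0.0596 CPM in empty-needle skin and 0.334 ± 0.0494 CPM in untreated skin. Of the Mpo span, 49.5% overlaps another gene in the table, so its reads may be lost in part. Of all tested genes, 42.3% were called in loaded-needle against untreated skin, 48.3% in empty-needle against untreated skin and 41.4% between the needle groups. Of 8 tested granule genes, 2 fell and 1 rose in loaded-needle skin against untreated skin (median -0.48). In empty-needle skin 3 fell and 0 rose (median -0.092), and between the needle groups 3 were lower and 2 higher in loaded-needle skin (median -0.42). The members that fell in loaded-needle skin were Lcn2, the gene of lipocalin 2, which inflamed keratinocytes also make, and Mmp9, the gene of a gelatinase of many cell types. Lcn2 stood at 2.35 ± 0.0232 CPM in loaded-needle skin, 2.99 ± 0.400 CPM in empty-needle skin and 4.95 ± 0.301 CPM in untreated skin. Padi4, whose enzyme citrullinates histones in neutrophils, rose, at 87.5 ± 4.66, 58.6 ± 5.16 and 68.9 ± 4.18 CPM in the same groups. That level was far above those of Elane and Mpo, and the cells that Padi4 RNA came from were not tested. The summed level of the 11 granule genes ran from 90.9 to 99.7 CPM in loaded-needle skin, from 62.7 to 73.3 CPM in empty-needle skin and from 76.6 to 84.5 CPM in untreated skin, most of it Padi4.

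Surface and cytoplasmic genes of mature neutrophils gave 9 lower and 0 higher of 19 tested genes in loaded-needle skin against untreated skin (median -0.48), and 9 lower and 0 higher in empty-needle skin (median -0.46). Between the needle groups 7 were lower and 2 higher in loaded-needle skin (median 0.10). Their summed level ran from 187 to 202 CPM in loaded-needle skin, from 314 to 345 CPM in empty-needle skin and from 447 to 555 CPM in untreated skin. The list holds Stfa genes, near-identical copies among which reads may be split, and Stfa1 is also on the list for injured epidermis below. Wfdc21, a gene of the whey acidic protein type, made up a large part of the sum, at 75.5 ± 2.27, 140.5 ± 8.68 and 151 ± 13.9 CPM in the same groups. Hdc, the histidine decarboxylase gene, stood at 1.58 ± 0.0663, 1.33 ± 0.122 and 2.78 ± 0.230 CPM. Neutrophil numbers were not tested by this sum, and Ly6g stood at 0.102, 0.129 and 0.181 CPM. Genes of the phagocyte oxidase and of phagocyte surface proteins, which neutrophils share with macrophages, fell in 10 of 10 tested cases in loaded-needle skin (median -0.71) and in 8 of 10 in empty-needle skin, with 1 higher (median -0.45). Set against empty-needle skin, 9 of 10 were lower in loaded-needle skin (median -0.28). Itgb2, an integrin chain of white blood cells, stood at 9.47 ± 0.663 CPM in loaded-needle skin, 11.1 ± 0.800 CPM in empty-needle skin and 17.6 ± 0.736 CPM in untreated skin. Itgam was not tested, and nearly all of its span overlaps another gene in the table.

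Macrophage markers fell in 10 of 12 cases and rose in 0 in loaded-needle skin against untreated skin (median -0.59), fell in 9 and rose in 2 in empty-needle skin (median -0.39), and were lower in 8 and higher in 0 between the needle groups (median -0.23). Their summed level ran from 388 to 403 CPM in loaded-needle skin, from 482 to 492 CPM in empty-needle skin and from 498 to 516 CPM in untreated skin. C1qc, a complement gene of tissue macrophages, stood at 23.5 ± 1.23, 28.5 ± 1.69 and 39.5 ± 1.197 CPM in the same groups. Keratinocyte genes of injured epidermis moved further. Of 14 such genes, 12 fell and 0 rose in loaded-needle skin against untreated skin (median -1.29), 9 fell and 2 rose in empty-needle skin (median -0.54), and 11 were lower and 1 higher between the needle groups (median -0.80). Their summed level ran from 2284 to 2323 CPM in loaded-needle skin, from 2523 to 2812 CPM in empty-needle skin and from 4156 to 4502 CPM in untreated skin. Krt6a, an injury keratin, stood at 259 ± 0.914, 378 ± 20.6 and 794 ± 47.2 CPM in the same groups, and Krt6a and Krt6b are close copies whose reads may be shared. Of the Krt6a span, 40.1% overlaps other genes in the table. None of the 14 genes was at 0 in a group. The part of neutrophil, macrophage and keratinocyte numbers in the fall of S100a8, S100a9, Cxcr2 and Csf3r was not tested.

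**Figure D4:**
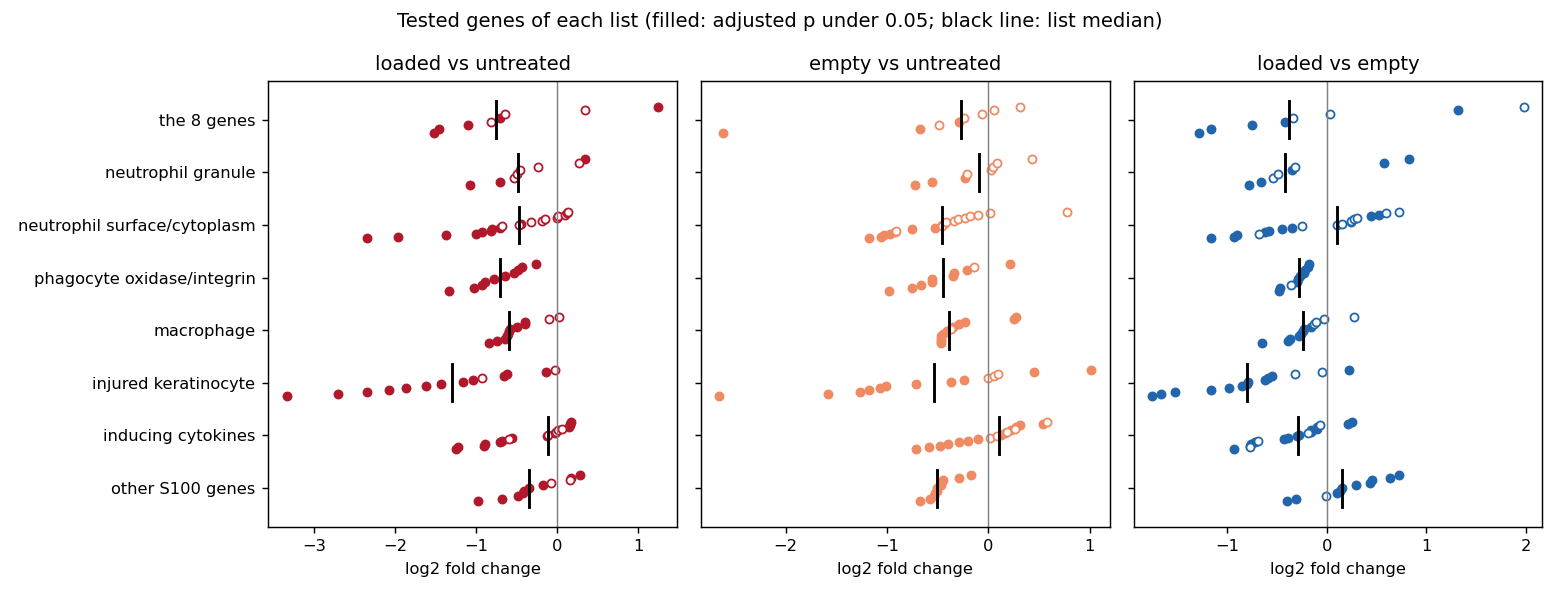
Log2 fold changes (x axes) of the tested genes of each list (y axis) in the 3 comparisons. Each point is a gene, filled where called at an adjusted p under 0.05, and black lines are list medians. In loaded-needle skin against untreated skin the median is -0.76 for the 8 genes, -0.48 for neutrophil granule genes and -1.29 for genes of injured keratinocytes.

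Cytokines that are known to switch on these genes in skin, with their receptors and regulators, gave 8 lower and 4 higher of 18 tested genes in loaded-needle skin against untreated skin (median -0.12). In empty-needle skin 7 were lower and 6 higher (median 0.11), and between the needle groups 12 were lower and 2 higher in loaded-needle skin (median -0.29). Il17a, Il17c and Il22 did not pass the filter, and Il17f was not called. Il1a, an alarm cytokine stored in keratinocytes, stood at 24.7 ± 1.28 CPM in loaded-needle skin, 30.4 ± 1.49 CPM in empty-needle skin and 45.8 ± 3.05 CPM in untreated skin. Of the Il1a span, 79.3% overlaps another gene in the table. Il1rn, which encodes the antagonist of the same receptor, stood at 121 ± 4.17, 135 ± 1.82 and 178 ± 11.7 CPM in the same groups. Zc3h12a encodes regnase-1, an RNase that degrades cytokine messages, and was highest in empty-needle skin, at 41.3 ± 1.65, 54.2 ± 1.03 and 37.4 ± 1.56 CPM. Il36rn, the gene of the IL-36 receptor antagonist, stood at 373 ± 14.3 CPM in loaded-needle skin, 636 ± 23.1 CPM in empty-needle skin and 599 ± 28.6 CPM in untreated skin.

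Other cell types were counted for comparison. Keratinocyte genes of ordinary epidermis fell in 9 of 11 cases and rose in 1 in loaded-needle skin (median -0.37), and fell in 6 and rose in 5 in empty-needle skin (median -0.10), against untreated skin. Against empty-needle skin 9 of the 11 were lower and 0 higher in loaded-needle skin (median -0.27). Eosinophil markers were rare, at a summed 0.894 to 1.44 CPM in loaded-needle skin, 1.05 to 1.74 CPM in empty-needle skin and 1.48 to 1.76 CPM in untreated skin. Fibroblast genes fell in 6 of 6 cases in both needle groups against untreated skin (medians -0.62 and -0.23), and between the needle groups 5 were lower and 1 higher in loaded-needle skin (median -0.45). Of 7 endothelial genes, 1 rose and 1 fell in loaded-needle skin against untreated skin (median 0.016), and 0 were called between the needle groups. Hair follicle genes rose in 6 of 6 cases in loaded-needle skin (median 0.31) and fell in 6 of 6 in empty-needle skin (median -0.51) against untreated skin, and 6 of 6 were higher in loaded-needle than in empty-needle skin (median 0.80). Skeletal muscle genes summed to 6226 to 6663 CPM in loaded-needle skin, 8525 to 9965 CPM in empty-needle skin and 6781 to 6994 CPM in untreated skin. Of 6 muscle genes, 4 fell and 1 rose in loaded-needle skin (median -0.19), and 1 fell and 5 rose in empty-needle skin (median 0.33), against untreated skin. Against empty-needle skin 5 were lower and 1 higher in loaded-needle skin (median -0.65). Mast cell genes gave 3 lower and 1 higher of 7 in loaded-needle skin (median -0.098) and 4 lower and 0 higher in empty-needle skin (median -0.22), against untreated skin, and 1 lower and 3 higher between the needle groups (median 0.096). The part of these cell types in the differences of the 8 genes was not tested.

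For each of the 8 genes, the 2 genes most like it across the 9 libraries were named among the 13924 or 13925 candidates of at least 1 CPM. Likeness was the root mean square difference between centred log2 CPM values, which share library and scaling. Cxcr2 was closest to Il36rn (0.050) and to Il36g (0.051), the gene of an IL-36 cytokine of keratinocytes. Il36g stood at 105 ± 6.81 CPM in loaded-needle skin, 173 ± 7.65 CPM in empty-needle skin and 171 ± 10.04 CPM in untreated skin. S100a8 was closest to S100a9 (0.093) and to Lce1g (0.12), a late cornified envelope gene. S100a9 was closest to S100a8 and to Serpinb12 (0.099), a clade B serpin gene that stood at 66.7 ± 1.98, 159 ± 4.52 and 210.5 ± 16.4 CPM in the same groups. Csf3r was closest to Cd53 (0.10), a tetraspanin gene of white blood cells, and to Slitrk6 (0.12). Cd53 stood at 5.63 ± 0.498, 7.23 ± 0.336 and 11.3 ± 0.631 CPM. Cxcl1 was closest to Slc12a1 (0.16), an ion transporter gene, and Notum (0.19), which encodes an enzyme that inactivates Wnt proteins, and Slc12a1 stood at 14.7 ± 0.219, 7.08 ± 0.614 and 6.52 ± 0.184 CPM. Ly6g was closest to Clec12a (0.18) and Dhx58 (0.19), Cxcl2 to En1 (0.14) and Amigo2 (0.16), and Cxcl5 to B3galt2 (0.57) and Lep (0.59). These matches are loose. By the same measure Ly6g, Cxcl2 and Cxcl5 themselves varied by 0.38, 0.28 and 0.97 around their own means, and Cxcr2 by 0.35.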

How the data were processed

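The labels list poly(A) RNA from skin, purified by a miRNeasy kit (Qiagen), and libraries from the xGen Broad-Range kit (IDT). For the deposited counts, HISAT2, featureCounts and build mm39 are named in the submitters' processing notes. The values are whole read counts per gene as the authors deposited them, with no normalization. No source used here gives tool versions, annotation or strand setting. The deposited gene length equals the whole gene span for 99.9% of genes, which fits counting over introns too, so reads of overlapping genes may be lost or shared.

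Genes passed edgeR's filterByExpr at a minimum count of 10 and a minimum total of 15. Counts were TMM-scaled, and edgeR 4.0.16 (R 4.3.3) was run with its robust quasi-likelihood test on all 9 libraries, 1 coefficient per group. SE follow from the F statistic. Totals were 85962714 to 96740589 counts per library. Intervals on summed counts cover counting error only. Alternatives were DESeq2 1.42.0, limma 3.58.1 (voom), other scalings and filters, no robust option, a fit on only 2 groups, a block for replicate number, and each library left out. The scripts were tested on simulated data. Within-library ratios had exact permutation tests. Genes named are the 8 members, up to 4 per list with the smallest p over the 3 groups, the 2 nearest of each member, Il2 and Ccl22. Csf3, Mpo, Il17f and the genes under the filter were named after their values were seen. The 8 genes and all lists were chosen with earlier results of these data known.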

Additional observations from a re-analysis of the deposited data

How the results depend on the processing

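The calls of Cxcl1, Cxcr2, S100a8, S100a9 and Csf3r in loaded-needle against untreated skin kept their direction and their side of the threshold under every alternative that gave a value. Over the 24 gene comparisons and 19 alternatives, 403 of 437 values did so, and 17 of the 24 comparisons did so throughout. Cxcl1, Cxcl2, Cxcl5 and Ly6g gave no value under the stricter filter, DESeq2 gave no adjusted p for Cxcl5 in any comparison or for Ly6g in those of loaded-needle skin, and Cxcl5 gave no value with only the 2 groups compared in those of empty-needle skin. The fits below are edgeR's unless another tool is named, and the cause of each change was not tested.

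In empty-needle against untreated skin, the S100a8 call was lost with DESeq2 size factors (-0.26), upper-quartile factors (-0.22), library size alone (-0.19), the DESeq2 Wald test (-0.26) and only the 2 groups compared (-0.26), and ranged from -0.40 to -0.18 with 1 library left out. S100a9 was called with no filter (-0.23), limma-voom (-0.23) and no robust option (-0.24), and ranged from -0.32 to -0.13 with 1 library left out. Cxcl1, not called, turned to 0.0071 with upper-quartile factors and 0.040 with library size alone, and ranged from -0.14 to 0.087 with 1 library left out. Cxcr2 was called with library size alone (0.15). The number of genes called among the 8 was 1 with DESeq2, where 11875 of 26081 tested genes were called, and 1 of 7 tested with only the 2 groups compared, where 12177 of 25394 were called. Both stand against 3, Cxcl5 included, and 12597 of 26081.

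In loaded-needle against empty-needle skin, Cxcl5 was called with DESeq2 size factors (1.96), library size alone (2.01), no filter (1.97), limma-voom (2.16) and the replicate block (2.001), and ranged from 1.42 to 3.46 with 1 library left out. Cxcl2, not called, turned to -0.016 with upper-quartile factors and ranged from -0.084 to 0.14 with 1 library left out. Csf3r ranged from -0.55 to -0.30 with 1 library left out. Same-numbered libraries correlated at -0.100 to 0.0956 in their deviations from group means, so the numbers were not taken as pairs. The replicate block gave 5, 3 and 6 called genes of the 8 in loaded-needle against untreated, empty-needle against untreated and loaded-needle against empty-needle skin, beside 10960, 12490 and 10753 of 26081 tested genes. Under the block Cxcl5 was called in both comparisons of empty-needle skin, from which nothing is drawn either. Depth limits Cxcl5 and Ly6g, with at most 17 counts in any library.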
